A study of Mus musculus with 9 samples.

Results

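The mitochondrial genome of the mouse carries 37 genes, and the count table held a row for each of them among its 53700 genes. They are 13 mRNAs, 2 rRNAs and 22 tRNAs, and were taken as every row whose GENCODE M21 symbol starts with mt-. RNA was measured in C2C12 cells, an established mouse myoblast line, in 3 groups of 3 libraries. Every well was first starved for 12 h in OPTI-MEM medium, and Control wells were collected at that point. Valine wells then had valine at 0.45 mM over 36 h. In Val+PA wells the same dose of valine lasted 24 h and palmitic acid, the common saturated fat of the diet, followed at 75 µM over 12 h. The 3 libraries of a group came from 3 of the 6 wells on a single plate, so p-values measure the spread between wells of a plate. Plate and treatment cannot be told apart, and neither can valine and the longer culture of the treated wells.

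Mitochondrial DNA is transcribed from both strands into long precursors, which are cut mostly at the tRNAs that lie between the other genes. The mRNAs encode subunits of the respiratory chain and of ATP synthase (complex V). The rRNAs and tRNAs serve only the translation of those mRNAs inside the organelle. Levels of the mature RNAs differ although most are made from the same precursor, because each is processed and degraded at its own rate. In muscle these subunits work in the oxidative enzymes that supply contraction with ATP.

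Of the 37 genes, 28 lie on the strand that the annotation calls plus and 9 on the minus strand, namely mt-Nd6 and 8 tRNAs. The 25 that passed the filter on low counts were all mRNAs, both rRNAs and 10 of the 22 tRNAs. Of the other 12 tRNAs, 10 had 6 to 77 counts over all libraries together, and mt-Tf and mt-Tg had none, which allows up to 0.0814 to 0.121 CPM in a library (counting error only). mt-Tc alone held 55.2% of all tRNA counts, mt-Th 16.2% and mt-Tn 9.28%. Their gene sequences are shown because they carry most of what was measured of the tRNAs. They come from the GENCODE M21 transcripts of GRCm38, 5′ to 3′, and the capitals mark the anticodon, found by its letters.
mt-Tc: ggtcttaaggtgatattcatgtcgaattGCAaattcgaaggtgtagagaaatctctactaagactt
mt-Tn: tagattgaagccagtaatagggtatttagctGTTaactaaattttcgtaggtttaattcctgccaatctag
mt-Th: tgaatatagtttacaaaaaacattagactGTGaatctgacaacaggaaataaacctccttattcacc
mt-Tc, the cysteine tRNA, lies at chrM:5192-5257 on the minus strand, mt-Tn, the asparagine tRNA, at chrM:5089-5159 on the minus strand, and mt-Th, the histidine tRNA, at chrM:11546-11612 on the plus strand. The first pair belongs to the group of tRNA genes between mt-Nd2 and mt-Co1, and mt-Th follows mt-Nd4.

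A second set of sequences matters for reading the mRNA values. An annotated stretch of chromosome 1 holds pseudogenes that copy 7 of the mRNAs, on the minus strand from Gm28439 at chr1:24611535-24612410 to Gm29216 at chr1:24615706-24616197. Over the aligned bases the copies of mt-Co2, mt-Atp6, mt-Co3, mt-Nd4l and mt-Nd4 had no mismatch, and those of mt-Co1 and mt-Nd3 had 1 each. Both differing stretches are shown because they hold the only base differences found over the aligned part of the 7 copies. The capital marks the base that differs.
mt-Co1: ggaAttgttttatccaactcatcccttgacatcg
Gm29216: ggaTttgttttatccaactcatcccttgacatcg
mt-Nd3: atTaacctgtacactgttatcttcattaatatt
Gm28438: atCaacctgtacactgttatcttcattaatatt
The substitutions are A1066T in mt-Co1 and T3C in mt-Nd3, counted from 1 at the 5′ end of the mitochondrial gene, with the mitochondrial base first. The stretches lie at chrM:6390-6423 and chrM:9459-9491 on the plus strand, and at chr1:24616155-24616188 and chr1:24613087-24613119 on the minus strand.

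Library totals ran from 26750226 to 35976589 counts, and mitochondrial genes took 0.465% to 0.780% of them. All levels are given as CPM, counts scaled to the TMM-adjusted library size, and 1 count was 0.0271 to 0.0402 CPM. mRNAs held 96.6% of the mitochondrial counts, rRNAs 2.76% and tRNAs 0.664%, and mt-Co1 alone held 54.3%. Whether rRNA was depleted or polyadenylated RNA selected is not given in the sources used here. All 8 myoblast markers had counts, and of 5 adipocyte markers Adipoq, Retn and Lep had none, Cfd was at 0.109 to 0.542 CPM and Plin1 at 0 to 0.217 CPM. Markers of other cell types moved with the comparisons below: the summed level of 4 fibroblast markers, mostly Dcn, was 13.9 to 22.8 CPM in Control, 258 to 281 CPM in Valine and 125 to 221 CPM in Val+PA. In the same order, 4 endothelial markers summed to 0.523 to 1.09, 2.44 to 3.05 and 2.36 to 3.49 CPM, and 4 immune markers to 12.4 to 13.1, 15.2 to 15.8 and 20.4 to 25.02 CPM. The endothelial sum was mostly Kdr and Tek, with Pecam1 at most at 0.264 CPM and Cdh5 at 0.174 CPM. The immune sum was mostly Cd14 and Cd68, with Ptprc at most at 0.309 CPM and Adgre1 at 0.0309 CPM. The fibroblast marker Thy1 was at most at 0.124 CPM. The part of other cells, or of the change in myoblast markers, in the results was not tested.

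Some libraries of the same group differed in a larger share of these genes than of all genes. That Control 3 and Val+PA 2 stand apart was known beforehand. Between Control 3 and Control 1, 18 of the 25 tested members (72%) differed at least 2-fold, 15 of them higher and 3 lower in Control 3, against 10.6% of all 18415 genes tested. Of the 15, mt-Tk rests on only 2 counts in Control 1, mt-Ts1 on 7 and mt-Ti on 14. Between Control 3 and Control 2 it was 48% of the members, 9 higher and 3 lower in Control 3, and 10.5% of all genes. Between Val+PA 2 and Val+PA 1 it was 60% of the members and 10.2% of all genes, and between Val+PA 3 and Val+PA 1 it was 44% and 6.24%. Control 2 and Control 1 differed at least 2-fold in 12% of the members and 5.18% of all genes, Valine 2 and Valine 1 in 8% and 3.86%, and Valine 3 and Valine 1 in 0% and 4.14%. Control 3, Val+PA 2 and Val+PA 3 held the 3 highest values of 8 of the 15 mRNAs and rRNAs, and the 3 lowest of 3, mt-Co1, mt-Co3 and mt-Nd4l. Val+PA 1 lay at 0.903 to 1.23 times the Valine mean for each of these 15.

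**Figure D1:**
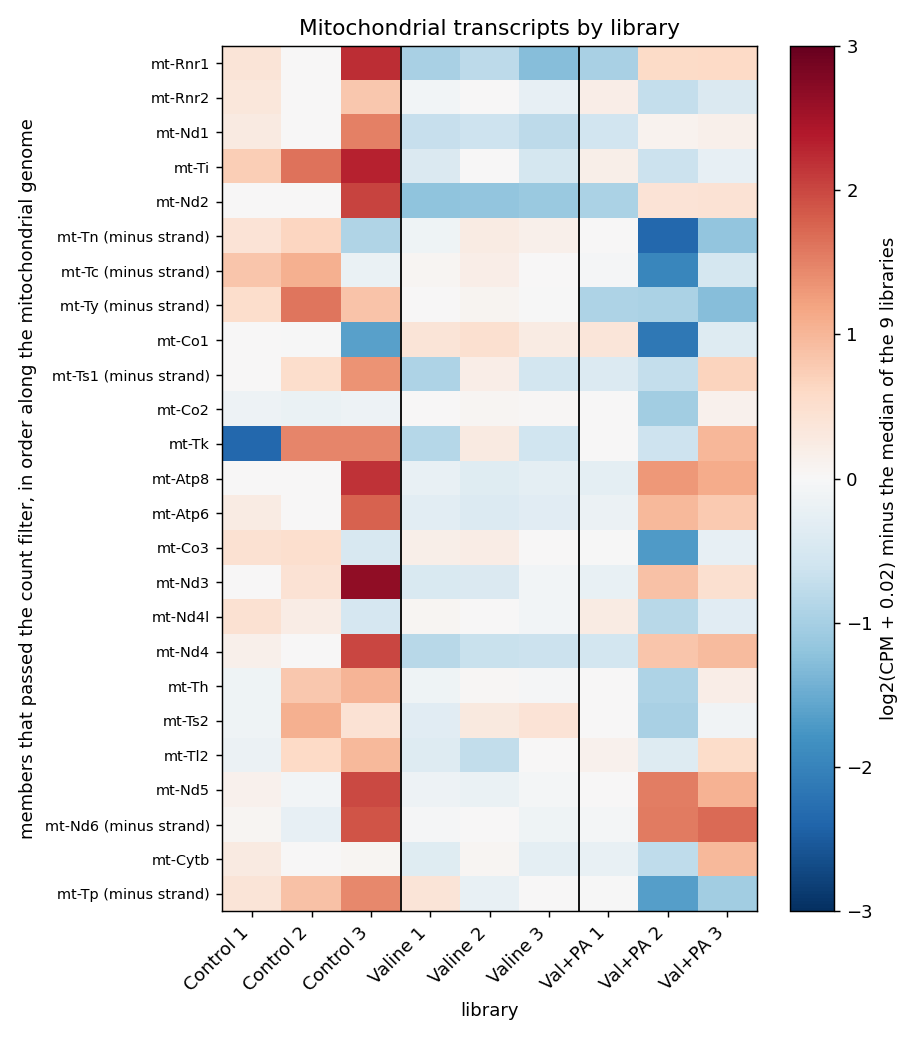
Level of the 25 tested members (rows, in their order along the mitochondrial genome) in the 9 libraries (columns), as log2(CPM + 0.02) minus the member's median over the libraries. Red is above and blue below that median: Control 3 is red for mt-Nd2, mt-Nd3, mt-Nd4, mt-Nd5 and mt-Nd6 and blue for mt-Co1, and Val+PA 2 is blue for mt-Co1, mt-Co3, mt-Tn and mt-Tc.

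Complex I, the NADH dehydrogenase that feeds electrons into the chain, takes 7 of its subunits from these genes. mt-Nd1 was at 106, 88.4 and 251 CPM in Control 1 to 3, 54.4, 57.7 and 51.1 CPM in Valine, and 59.6, 94.9 and 97.97 CPM in Val+PA. mt-Nd2 was at 133, 131 and 532 CPM in Control, 56.7, 57.6 and 60.4 CPM in Valine, and 68.4, 176 and 177 CPM in Val+PA. For both genes every Valine library was below every Control library, and Control 3 was the highest of all. mt-Nd3 was at 27.2, 37.0 and 171 CPM in Control, 19.7, 20.2 and 25.8 CPM in Valine, and 23.4, 49.9 and 37.7 CPM in Val+PA. mt-Nd4 was at 285, 257 and 1030 CPM in Control, 145, 161 and 163 CPM in Valine, and 176, 455 and 495 CPM in Val+PA. Again the Valine libraries lay together below all Control libraries, with Val+PA 1 close to them. mt-Nd5 was at 570, 493 and 2053 CPM in Control, 471, 456 and 500 CPM in Valine, and 521, 1512 and 1081 CPM in Val+PA. Its Valine and Control values overlapped, since Control 2 fell inside the Valine range.

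mt-Nd4l was the exception in complex I. It was at 7.37, 6.28 and 3.74 CPM in Control, 5.54, 5.35 and 5.04 CPM in Valine, and 6.37, 3.01 and 4.2004 CPM in Val+PA. Control 3 and Val+PA 2, which were high for the other subunits of the complex, were the 2 lowest libraries here. mt-Nd4l and mt-Nd4 overlap by 7 bases in the genome and are known to share the same mRNA. In all, mt-Nd4 had 96179 counts over 1378 bases and mt-Nd4l 1555 over 297 bases. In Valine that was 113 ± 7.32 and 17.9 ± 0.849 CPM per kilobase (mean ± SD, n = 3). Their chromosome 1 copies held 45.1% and 54.9% of the counts of each pair, so both levels are uncertain.

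mt-Nd6 is the only mRNA on the minus strand. Its level was 335, 274 and 1190 CPM in Control, 316, 324 and 296 CPM in Valine, and 311, 962 and 1059 CPM in Val+PA. Set against the summed counts of the other 12 mRNAs, the Control libraries had 5.53%, 4.62% and 19.0%, the Valine libraries 4.71%, 4.59% and 4.77%, and the Val+PA libraries 4.67%, 26.4% and 18.3%. The share, which needs no scaling between libraries, lay between 4.59% and 5.53% in 6 libraries and at 18.3% or more in Control 3, Val+PA 2 and Val+PA 3. Its groups overlapped in all 3 comparisons (exact permutation test, two-sided, p = 0.3 for Valine against Control, 0.3 for Val+PA against Valine and 0.6 for Val+PA against Control, where 0.1 is the smallest that 3 against 3 allows). The kit is described as strand-specific, but the strand setting of the counting is not given in the sources used here, so reads of mt-Nd6 and of RNA antisense to it cannot be told apart.

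Complex IV, cytochrome c oxidase, which passes electrons to oxygen, takes its 3 core subunits from these genes. mt-Co1 was at 3807, 3786 and 1228 CPM in Control, 4983, 5299 and 4491 CPM in Valine, and 4903, 864 and 2932 CPM in Val+PA. Valine was above all Control libraries, while Val+PA spanned nearly the whole range. mt-Co3 was at 758, 790 and 400 CPM in Control, 624, 643 and 554 CPM in Valine, and 548, 170 and 465 CPM in Val+PA. mt-Co2 was at 228, 224 and 230 CPM in Control, 256, 265 and 263 CPM in Valine, and 257, 124 and 278 CPM in Val+PA. mt-Co2 was thus at 224 to 278 CPM in 8 libraries, with every Valine library above every Control library, and low in Val+PA 2. By contrast, mt-Co1 and mt-Co3 were also low in Control 3.

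Summed over a complex, the mRNAs of complexes I and IV went opposite ways between libraries of one group. The 7 mRNAs of complex I summed to 1463, 1287 and 5231 CPM in Control, 1068, 1082 and 1102 CPM in Valine, and 1166, 3253 and 2952 CPM in Val+PA. The 3 mRNAs of complex IV summed to 4794, 4800 and 1858 CPM in Control, 5863, 6207 and 5308 CPM in Valine, and 5709, 1157 and 3675 CPM in Val+PA. The 3 libraries with the highest complex I sums were the 3 with the lowest complex IV sums.

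Complex V has mt-Atp6 and mt-Atp8 in its membrane part, from reading frames that overlap by 43 bases. mt-Atp8 was at 18.0, 17.8 and 79.6 CPM in Control, 15.3, 13.9 and 14.6 CPM in Valine, and 14.5, 44.3 and 38.4 CPM in Val+PA. mt-Atp6 was at 80.7, 67.9 and 231 CPM in Control, 54.5, 51.4 and 53.6 CPM in Valine, and 59.9, 133 and 118 CPM in Val+PA. Both followed the pattern of most complex I mRNAs, with no overlap between Valine and Control. Complex III takes only cytochrome b, mt-Cytb, from this genome. mt-Cytb was at 43.4, 35.8 and 37.2 CPM in Control, 27.9, 37.0 and 29.3 CPM in Valine, and 30.6, 21.2 and 70.8 CPM in Val+PA, and Val+PA 3 was its highest library and Val+PA 2 its lowest.

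**Figure D2:**
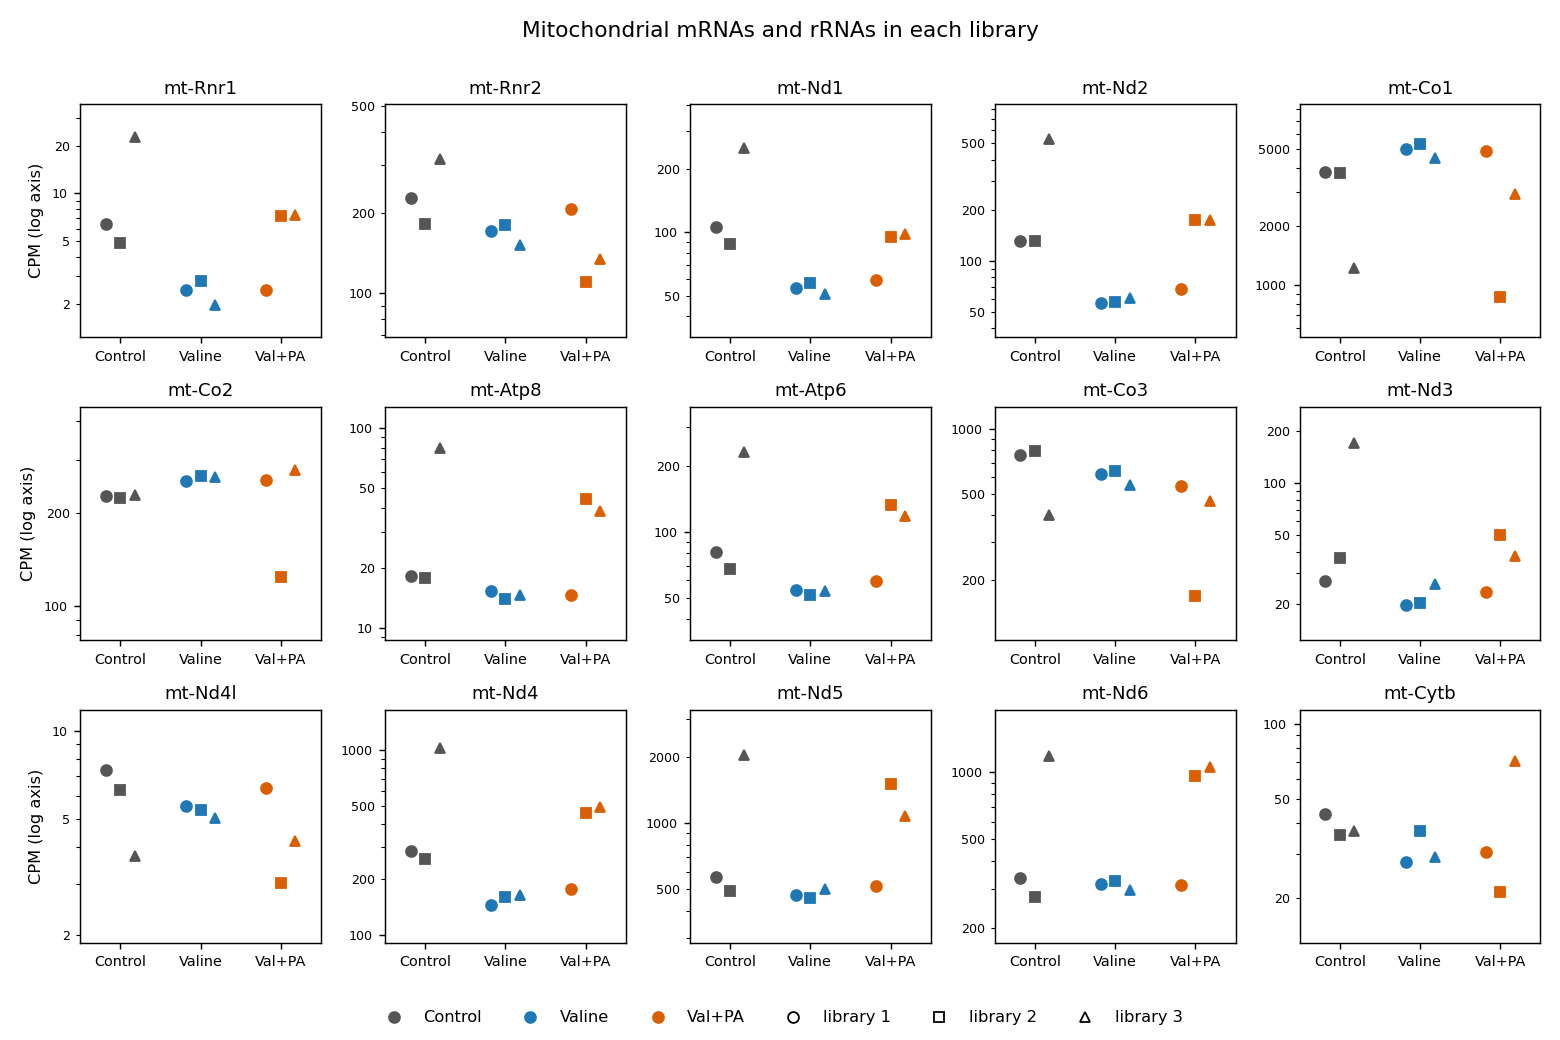
CPM (log axis, its range set for each panel) of the 13 mRNAs and 2 rRNAs in each of the 9 libraries, coloured by group, with the marker giving the library number. The Valine points lie within 1.41-fold of each other in every panel, while Control 3 (grey triangle) lies far from its group for mt-Nd5 and mt-Co1, on opposite sides. Val+PA 2 (orange square) is the highest library of its group for mt-Nd5 and the lowest for mt-Co1, with Val+PA 3 between it and Val+PA 1.

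The rRNAs are the structural RNAs of the mitochondrial ribosome, mt-Rnr1 of its small and mt-Rnr2 of its large subunit. mt-Rnr1 was at 6.44, 4.89 and 22.7 CPM in Control, 2.47, 2.82 and 1.99 CPM in Valine, and 2.47, 7.23 and 7.35 CPM in Val+PA. mt-Rnr2 was at 227, 181 and 316 CPM in Control, 171, 181 and 151 CPM in Valine, and 206, 110 and 135 CPM in Val+PA. Valine was below Control in both, by a small gap in mt-Rnr2, whose Control 2 and Valine 2 values were 181.2 and 180.5 CPM. In Val+PA 2 and Val+PA 3 mt-Rnr1 was higher and mt-Rnr2 lower than in Val+PA 1.

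Levels per kilobase of gene correct for length only. Whether rRNA was depleted or polyadenylated RNA selected is not given, so the rank of the rRNAs among the mRNAs is uncertain. Per kilobase, mt-Co1 had the highest level in the Valine libraries, 3187 ± 263 CPM per kb (mean ± SD, n = 3). It was followed by mt-Co3 at 774 ± 59.7, mt-Nd6 at 602 ± 27.6, mt-Co2 at 382 ± 7.26 and mt-Nd5 at 261 ± 12.2 CPM per kb. mt-Nd4 at 113 ± 7.32 and mt-Rnr2 at 106 ± 9.53 CPM per kb came next and did not differ beyond their spread. The lowest levels per length were those of mt-Cytb at 27.5 ± 4.28, mt-Nd4l at 17.9 ± 0.849 and mt-Rnr1 at 2.54 ± 0.434 CPM per kb. The other 5 mRNAs lay between 56.1 and 78.1 CPM per kb, and the levels of the members with a chromosome 1 copy, described further on, are uncertain.

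Among the tRNAs, genes of 59 to 75 bases that carry amino acids to the mitochondrial ribosome, mt-Tc was at 40.4, 47.9 and 19.8 CPM in Control, 23.8, 26.3 and 22.8 CPM in Valine, and 22.2, 5.86 and 15.8 CPM in Val+PA. mt-Tn was at 5.99, 7.01 and 2.41 CPM in Control, 4.13, 5.35 and 5.04 CPM in Valine, and 4.50, 0.864 and 1.98 CPM in Val+PA. Both were low in Control 3 and Val+PA 2, as mt-Co1 was. mt-Th was at 6.05, 11.6 and 13.3 CPM in Control, 6.05, 6.71 and 6.41 CPM in Valine, and 6.59, 3.49 and 7.60 CPM in Val+PA. mt-Ty, the tyrosine tRNA, was at 0.481, 1.03 and 0.604 CPM in Control, 0.326, 0.349 and 0.322 CPM in Valine, and 0.163, 0.160 and 0.124 CPM in Val+PA. The 3 groups of mt-Ty did not overlap, but its 9 values rest on 114 counts in all. mt-Ti, the isoleucine tRNA, was at 0.449, 0.850 and 1.37 CPM in Control, 0.190, 0.261 and 0.176 CPM in Valine, and 0.298, 0.160 and 0.216 CPM in Val+PA, on 121 counts.

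mt-Tl2, one of the leucine tRNAs, was at 2.76, 4.74 and 6.12 CPM in Control, 2.39, 1.86 and 3.10 CPM in Valine, and 3.42, 2.37 and 4.54 CPM in Val+PA. mt-Tp, the proline tRNA, was at 1.121, 1.58 and 2.33 CPM in Control, 1.113, 0.726 and 0.849 CPM in Valine, and 0.841, 0.256 and 0.402 CPM in Val+PA. For mt-Tp all Control values were above all others, by a narrow gap between Control 1 and Valine 1 at 1.113 CPM, while for mt-Tl2 Control 1 lay within the range of the treated wells. The serine tRNA mt-Ts2 was at 1.602, 3.70 and 2.37 CPM in Control, 1.38, 2.15 and 2.34 CPM in Valine, and 1.76, 0.896 and 1.64 CPM in Val+PA. mt-Ts1, the other serine tRNA, was at 0.224, 0.334 and 0.604 CPM in Control, 0.109, 0.261 and 0.146 CPM in Valine, and 0.163, 0.128 and 0.371 CPM in Val+PA. The lysine tRNA mt-Tk was at 0.0641, 1.15 and 1.17 CPM in Control, 0.217, 0.494 and 0.264 CPM in Valine, and 0.407, 0.256 and 0.834 CPM in Val+PA. In all 3 of these genes the groups overlapped. Mature tRNAs are short and densely modified, and many tRNA genes touch or overlap a neighbour, so these counts may hold reads of precursors, which was not tested.

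By class, the summed mRNAs did not separate the groups. They came to 6681 ± 661 CPM in Control, 6976 ± 444 CPM in Valine and 6147 ± 1334 CPM in Val+PA (mean ± SD, n = 3), and exact two-sided permutation tests gave p of 0.4 to 0.8. The rRNA sum was 253 ± 78.3 CPM in Control, 170 ± 15.5 CPM in Valine and 156 ± 47.4 CPM in Val+PA. The tRNA sum was 64.4 ± 15.3 CPM in Control, 42.4 ± 2.504 CPM in Valine and 30.1 ± 13.7 CPM in Val+PA. Valine did not overlap Control in the rRNA sum or in the tRNA sum, nor did Val+PA overlap Control in the tRNA sum (exact permutation p = 0.1 in each, the smallest possible, and 0.4 adjusted over the 12 class tests). All other class comparisons overlapped, so no class passed a threshold of 0.05, which this design could not reach.

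By strand, the 14 plus-strand tRNAs summed to 11.7, 23.4 and 25.8 CPM in Control, 10.4, 11.9 and 13.005 CPM in Valine, and 12.9, 7.39 and 15.7 CPM in Val+PA. The 8 minus-strand tRNAs, chiefly mt-Tc, summed to 48.3, 58.0 and 25.997 CPM in Control, 29.6, 33.1 and 29.1 CPM in Valine, and 28.0, 7.26 and 19.1 CPM in Val+PA. Control 3 was thus the highest library for plus-strand tRNAs and below Valine 1 to 3 for minus-strand tRNAs. Minus-strand RNAs differed among themselves: mt-Nd6, mt-Tp and mt-Ts1 had their highest value in Control 3, mt-Tc and mt-Tn were lower there than in Control 1 and Control 2, and mt-Ty lay between those libraries.

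**Figure D3:**
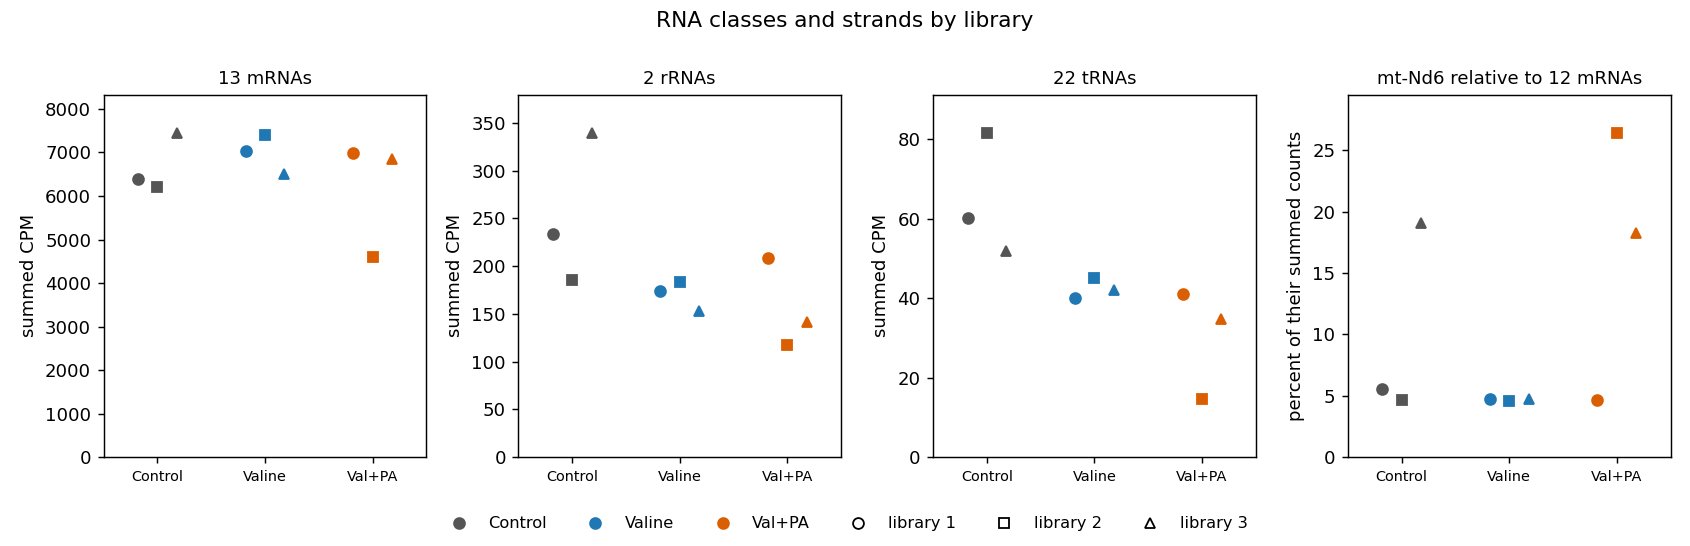
Summed CPM of the 13 mRNAs, 2 rRNAs and 22 tRNAs, and mt-Nd6 as percent of the summed counts of the other 12 mRNAs, in each library (linear axes from 0). The rRNA and tRNA sums of Valine lie below all Control values, and 3 libraries stand at 18.3% to 26.4% for mt-Nd6 while the other 6 lie near 5%.

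The comparison of Valine with Control addresses what valine supply, with the longer culture, did to starved myoblasts. In the edgeR quasi-likelihood test, 9 of the 25 tested members fell and none rose, where 41.9% of all genes tested were called in either direction 20.8% higher and 21.1% lower. The 9 were mt-Rnr1, the mRNAs mt-Nd1, mt-Nd2, mt-Nd3, mt-Nd4 and mt-Atp6, and the tRNAs mt-Ti, mt-Ty and mt-Tl2. By non-overlap of the groups, 11 members were lower and 2, mt-Co1 and mt-Co2, were higher in Valine, 13 of 25 against 59% of all genes (29.2% lower and 29.7% higher). The median log2 fold change of the 25 was -0.94, against -0.0049 over all genes. Without Control 3 it was -0.48, against 0.0098. The share of members called was thus close to the background, and those called were all lower. That direction did not hold for mt-Co1, which held 54.3% of the mitochondrial counts, or for mt-Co2.

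mt-Rnr1 fell by 2.21 on the log2 scale (SE 0.55, adjusted p = 0.0069), mt-Nd2 by 2.19 (SE 0.50, adjusted p = 0.0043) and mt-Ti by 2.05 (SE 0.47, adjusted p = 0.0040). mt-Nd1 had the smallest adjusted p, 0.0038, with a decrease by 1.45 (SE 0.33). Group means are raised by Control 3 for most of these genes. Without Control 3, 5 of 25 members were called (37.9% of all genes), with mt-Rnr1 at -1.22 (adjusted p = 0.027), mt-Nd1 at -0.83 (0.0043), mt-Nd2 at -1.18 (0.0096), mt-Ti at -1.62 (0.019) and mt-Ty at -1.18 (0.047). mt-Nd3 at -0.55, mt-Nd4 at -0.79, mt-Atp6 at -0.48 and mt-Tl2 at -0.61 then missed the threshold (adjusted p = 0.069 to 0.157). Without Control 1, 14 of 27 tested members were called (35% of all genes), and without Valine 1, 5 of 27 (30.8%). The call of mt-Ty also ended without Control 2 (-0.70, adjusted p = 0.227) and that of mt-Tl2 without Control 2 (-0.85, adjusted p = 0.086). The calls of mt-Ty and mt-Atp6 ended without any 1 of the Valine libraries, and those of mt-Nd3 and mt-Tl2 without Valine 1 or Valine 2 (adjusted p = 0.063 to 0.142).

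Control 3 and Val+PA 2 were picked to be left out because they were known to stand apart, so calls without them are not independent of that choice. Leaving out both, 13 members were called, against 54.1% of all genes. All 9 members of the first count were among them, mt-Tc at -0.86 and mt-Co3 at -0.35 were further members that fell, and mt-Co1 at 0.38 (adjusted p = 0.026) and mt-Co2 at 0.21 (adjusted p = 0.0058) rose. The log2 fold changes of mt-Nd5 and mt-Nd6 were then -0.15 and 0.04, and neither passed. In that setting the core subunits of complex IV therefore did not share a direction, with mt-Co1 and mt-Co2 higher and mt-Co3 lower in Valine. When Val+PA 3 was left out as well, 21 of 26 tested members were called, 19 lower and 2 higher, against 55.7% of all genes. mt-Nd1 was at -0.83 and mt-Nd2 at -1.17 in that setting, as without the pair. The SE fell to 0.07 and 0.06, but Val+PA 3 was left out for its mitochondrial profile, after seeing the data. The smaller spread and the further calls are therefore no independent support.

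Val+PA against Valine addresses the effect of palmitic acid, which cannot be told apart from plate or from the time in valine, 24 h in Val+PA and 36 h in Valine. None of the 25 members passed, nor did any of the 18415 genes (0% called). DESeq2 called 192 genes (1.38% of those it tested) and no member. Without a filter on low counts, edgeR called 13 of 35 members, 9 higher and 4 lower, against 2.3% of all genes. At an unadjusted p below 0.05, edgeR with the filter gave 7 of the 25 members and 2428 of the 18415 genes. mt-Nd1, mt-Nd2, mt-Nd4, mt-Nd5 and mt-Atp6 were higher in all 3 Val+PA libraries than in all Valine libraries, and mt-Co3, mt-Tc and mt-Ty lower, which makes 8 of 25 members against 24.6% of all genes (12.6% higher and 12% lower). For all 5 of the higher genes Val+PA 1 lay only just above the Valine range, and the difference came mainly from Val+PA 2 and Val+PA 3. Without Control 3 and Val+PA 2, 5 members were called, all higher in Val+PA, against 3.21% of all genes: mt-Nd2 at 1.07 on the log2 scale (adjusted p = 0.018), mt-Nd4 at 1.10 (0.023), mt-Atp6 at 0.73 (0.029), mt-Nd5 at 0.75 (0.032) and mt-Nd6 at 1.13 (0.039). The pair was left out because it was known to stand apart, so these 5 calls are not independent of that choice. That setting leaves Val+PA 1 and Val+PA 3, which differ from each other 2.08-fold in mt-Nd5 and 3.40-fold in mt-Nd6. Without Val+PA 3 as well, Val+PA 1 is the single library of its group and is assumed to vary like the others. No member was then called, against 2.21% of all genes, and the same 5 genes stood at 0.23 for mt-Nd2, 0.17 for mt-Nd4, 0.17 for mt-Atp6, 0.13 for mt-Nd5 and -0.0069 for mt-Nd6.

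In Val+PA against Control, 6 members fell and none rose, where 39.2% of all genes tested were called 20.4% higher and 18.8% lower. They were mt-Rnr2 and the tRNAs mt-Ti, mt-Tc, mt-Ty, mt-Th and mt-Tp, so no mRNA was called. The largest decrease was that of mt-Ty, by 2.22 on the log2 scale (SE 0.43, adjusted p = 0.0014). mt-Ti fell by 1.93 (SE 0.46, adjusted p = 0.0058), mt-Tp by 1.70 (SE 0.41, adjusted p = 0.0058) and mt-Tc by 1.30 (SE 0.39, adjusted p = 0.020). mt-Th and mt-Rnr2, at -0.80 and -0.68, were closer to the threshold (adjusted p = 0.0496 and 0.032). Groups did not overlap for 3 members, mt-Ti, mt-Ty and mt-Tp, against 45.5% of all genes. This comparison shares its Control libraries with the first one.

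Without Control 3 and Val+PA 2, mt-Rnr2 at -0.26 (adjusted p = 0.155) and mt-Th at -0.32 (adjusted p = 0.230) were no longer called. The calls of mt-Ti, mt-Tc, mt-Ty and mt-Tp stood, and 5 others appeared, which made 9 of 25 against 49.8% of all genes: mt-Tn at -0.99 and mt-Co3 at -0.61 lower, and mt-Co2 at 0.24, mt-Nd5 at 0.59 and mt-Nd6 at 1.17 higher. Leaving out Control 3 alone or Val+PA 2 alone also ended the calls of mt-Rnr2 and mt-Th, and mt-Rnr2 missed the threshold without Control 1 (adjusted p = 0.052) or Val+PA 3 (adjusted p = 0.110). mt-Th missed it without any 1 of Control 2, Valine 1, Valine 2, Valine 3 and Val+PA 1 as well (adjusted p = 0.062 to 0.131). The call of mt-Tc was lost without Control 1 (adjusted p = 0.055) or Control 2 (adjusted p = 0.075), though its log2 fold change stayed at -1.21 and -1.04. Without Control 3, Val+PA 2 and Val+PA 3, 14 members were called, 12 lower and 2 higher, against 44.1% of all genes. mt-Tc at -0.99 and mt-Ty at -2.19 were among them, while mt-Ti at -1.11, mt-Tp at -0.68 and mt-Th at -0.42 missed the threshold (adjusted p = 0.142 to 0.187), and mt-Rnr2 turned to 0.02 (adjusted p = 0.890).

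**Figure D4:**
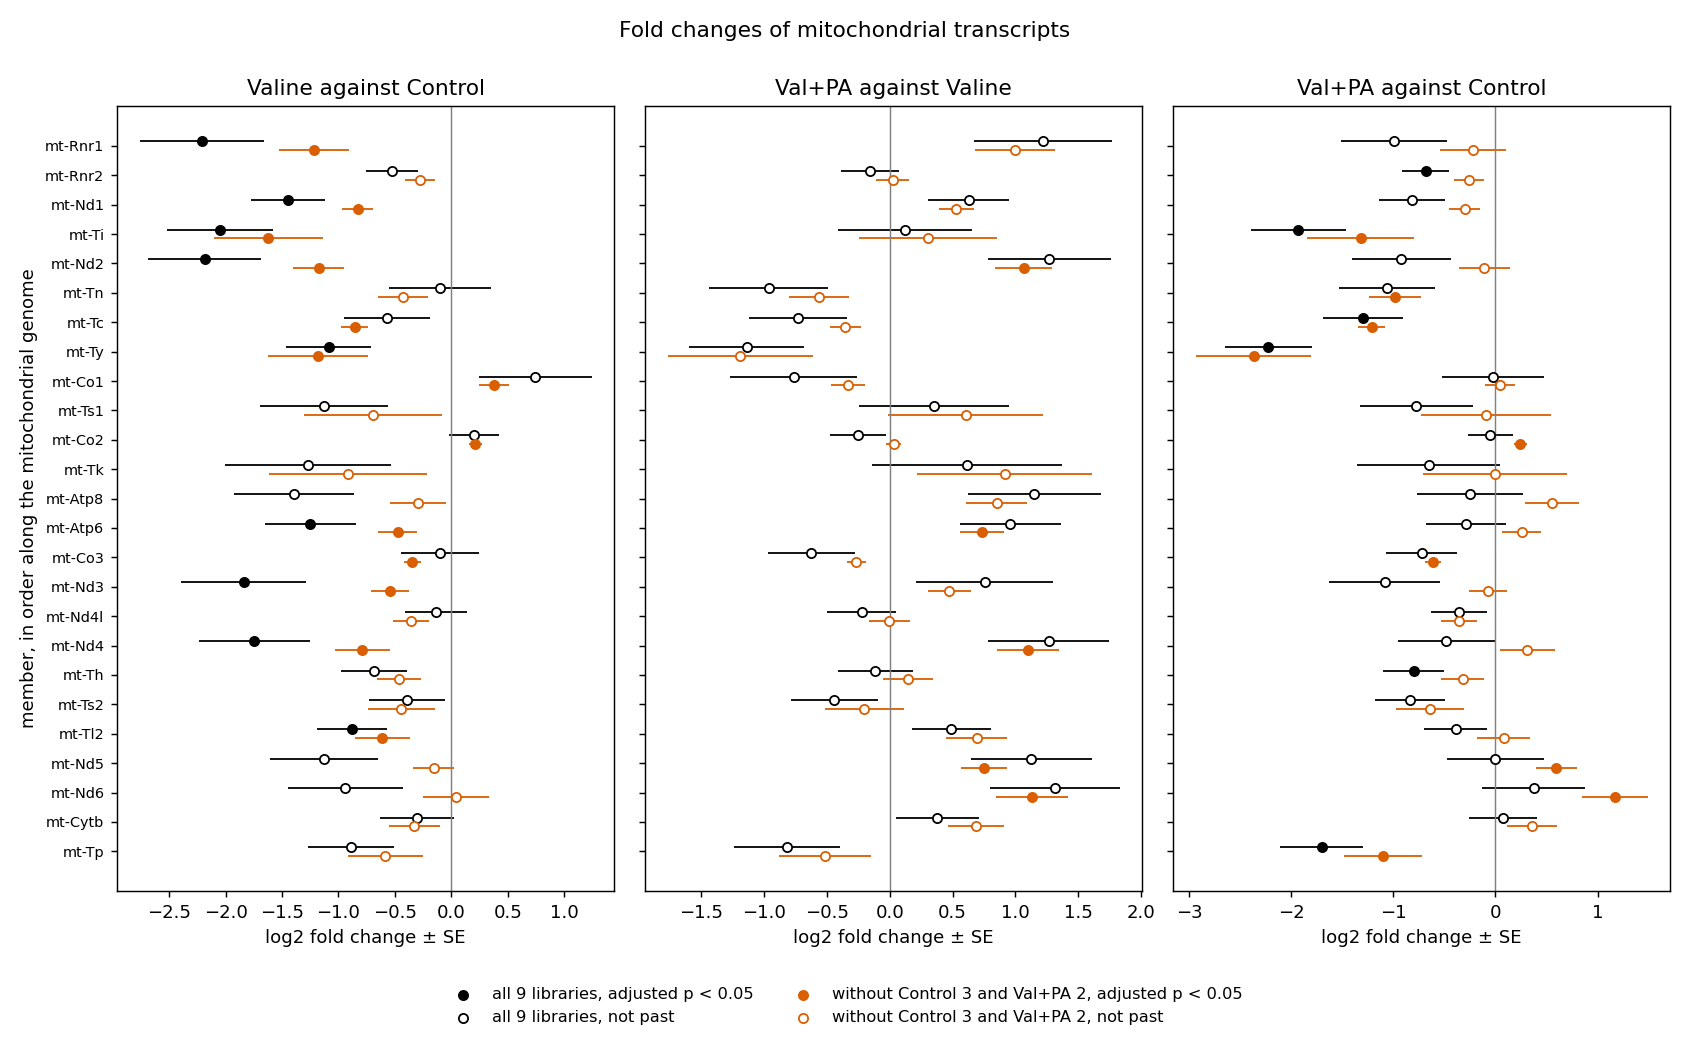
Log2 fold change ± SE of the 25 tested members in the 3 comparisons, with all 9 libraries (black) and without Control 3 and Val+PA 2 (orange). Filled points passed an adjusted p of 0.05. The decrease of mt-Rnr1 in Valine goes from -2.21 to -1.21 without the pair of libraries, that of mt-Nd2 from -2.19 to -1.18, and mt-Nd6 moves from -0.94 to 0.04.

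The counts of the chromosome 1 copies followed those of the mitochondrial genes in every library. Gm28437 held 50.1% to 50.4% of the counts it had together with mt-Co3, and Gm28661 held 50.1% to 50.9% of those with mt-Co2. In both pairs member and copy are identical over the aligned bases, and the counts were nearly even in all 9 libraries. Gm10925 held 64.5% to 67.5% of the counts with mt-Atp6, Gm28438 53.7% to 59.3% with mt-Nd3, Gm10222 51.8% to 62.2% with mt-Nd4l, and Gm28439, which spans 63.6% of mt-Nd4, 43.8% to 46.3%. Gm29216, which spans 31.3% of mt-Co1, held 4.002% to 8.54%.

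The copies also carried the differences between libraries. Gm28439 was at 222, 212 and 859 CPM in Control, 115, 131 and 131 CPM in Valine, and 140, 367 and 427 CPM in Val+PA, and fell in Valine against Control (log2 fold change -1.78, adjusted p = 0.014). Less similar copies on chromosomes 2 and 13 had few counts, 1301 for Gm13340, which is 97.6% identical to mt-Co1, 61 for Gm13341, 14 for Gm13339 and 1 for Gm4076. The level of a single one of these 7 mRNAs is therefore uncertain, and how the counting treated reads that match both places is not given in the sources used here. When each member was summed with its chromosome 1 copy, the counts of calls stayed at 9, 0 and 6, with the same members.

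**Figure D5:**
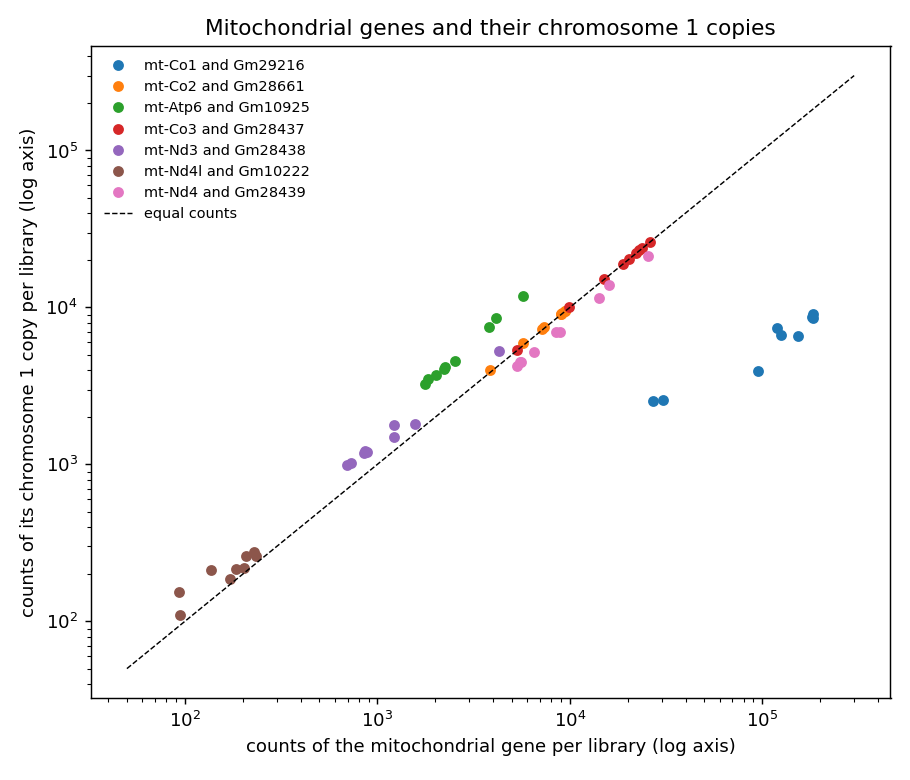
Counts of 7 mitochondrial mRNAs (horizontal) and of their chromosome 1 copies (vertical) in each of the 9 libraries, on log axes, with the line of equal counts. The mt-Co2 and mt-Co3 points lie on that line in all libraries, and the mt-Atp6 points lie above it.

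Nuclear genes make, process and translate these RNAs. The counts below read against 20.8% of all genes higher and 21.1% lower in Valine against Control. Of 24 genes for the transcription and replication of mitochondrial DNA, 4 rose and 6 fell in Valine against Control. Among those that fell was Polg, the DNA polymerase of the organelle, at 77.2, 80.6 and 86.0 CPM in Control and 44.8, 45.9 and 47.6 CPM in Valine (log2 fold change -0.82, SE 0.15, adjusted p = 0.00079). The RNA polymerase Polrmt fell by 0.74 (adjusted p = 0.0053) and Tfam, which packages the DNA and starts transcription, by 0.40 (adjusted p = 0.019); this pair was named for its role after its values were seen. Primpol, a primase and polymerase, rose by 1.13 on the log2 scale (SE 0.12, adjusted p = 1.4e-05). The median over the list was 0.06.

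Of 41 tested genes for the processing, modification and decay of mitochondrial RNA, 12 fell and 1 rose in Valine against Control. The largest fall was that of Pus1, a pseudouridine synthase that modifies tRNAs, at 14.1, 12.8 and 13.8 CPM in Control and 5.02, 5.55 and 7.0002 CPM in Valine (log2 fold change -1.21, SE 0.16, adjusted p = 9.5e-05). The gene that rose was Trit1, which modifies tRNAs next to the anticodon (log2 fold change 0.77, SE 0.11, adjusted p = 0.00012). Lrpprc, which stabilises mitochondrial mRNAs, fell by 0.83 (adjusted p = 0.00044) and Elac2, which cuts the 3′ end of tRNAs, by 0.47 (adjusted p = 0.020), both named for their roles after their values were seen. The median of the list was -0.26, and Val+PA against Control gave 14 lower and 1 higher, where 18.8% of all genes were lower and 20.4% higher.

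Of 78 tested proteins of the mitochondrial ribosome, 24 fell and 2 rose in Valine against Control, with a median of -0.26. Mrps6 of the small subunit fell by 1.09 (SE 0.14, adjusted p = 7.2e-05) and Mrpl57 of the large subunit rose by 0.46 (SE 0.13, adjusted p = 0.013). Of 23 tested enzymes that charge mitochondrial tRNAs, 5 fell and 2 rose. Cars2, which charges the cysteine tRNA mt-Tc, was at 27.5, 25.4 and 32.8 CPM in Control and 12.8, 14.6 and 14.3 CPM in Valine (log2 fold change -1.04, SE 0.13, adjusted p = 5.9e-05). Fars2, the enzyme for phenylalanine, rose by 0.49 (SE 0.14, adjusted p = 0.015).

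Nuclear subunits of complexes I, III and IV were called in both directions in Valine against Control. In complex I, 3 of 36 tested subunits rose and 3 fell, in complex III 1 of 9 rose and 2 fell, in complex IV 2 of 13 rose and 1 fell, and in complex V 0 of 18 rose and 4 fell. Cox6a2, the muscle form of a complex IV subunit, was at 0.192, 0.152 and 0.0402 CPM in Control and 2.12, 2.93 and 2.67 CPM in Valine (log2 fold change 4.22, SE 0.39, adjusted p = 5.9e-06). Its Control levels rest on few counts, since 1 count was 0.0304 to 0.0402 CPM there, so the size of this rise is imprecise. Of 12 tested regulators of mitochondrial biogenesis, 1 rose and 3 fell. Ppargc1a, a coactivator that drives biogenesis, was at 1.31, 1.28 and 1.77 CPM in Control and 8.63, 7.38 and 6.71 CPM in Valine (log2 fold change 2.39, SE 0.21, adjusted p = 4.8e-06), and its relative Pprc1 fell by 1.29 (SE 0.25, adjusted p = 0.0014). None of these lists had a called gene in Val+PA against Valine with all libraries.

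More genes of these lists were called in Valine against Control without Control 3 and Val+PA 2, as of all genes (54.1%). Genes for transcription and replication then gave 8 higher and 6 lower, those for RNA processing 3 and 21, ribosomal proteins 8 and 35, and the tRNA-charging enzymes 4 and 7. Complex I gave 7 higher and 8 lower, complex III 1 and 3, complex IV 3 and 2, complex V 2 and 7, and the biogenesis regulators 3 and 5. In Val+PA against Valine 1 subunit of complex III was then lower, and no other gene of these lists was called.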

How the data were processed

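Reads of 9 libraries were counted per gene. The submitters' processing notes name HISAT2, featureCounts, DESeq2 and the build GRCm38, without versions or settings. The deposited table holds whole-number read counts, not normalized. The authors' second table holds a normalized signal, equal on its values to the count times 1 gene factor and 1 library factor, and served only as an alternative. Columns P1 to P3 were taken as the samples titled VP1 to VP3.

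Symbols came from GENCODE M21 (97.1% of IDs matched). After filterByExpr, 18415 genes were TMM-scaled and tested in edgeR 4.0.16 under R 4.3.3 (quasi-likelihood, group means, 9 libraries in 1 fit, 6 residual degrees of freedom, two-sided, Benjamini-Hochberg over all genes tested at 0.05). The SE was taken from the fold change and the root of F. Class sums were compared by exact permutation of libraries. The fit was also run on simulated counts, whose outcome is not given here and is not used as support. Copies were found with BLAST+ 2.17.0 (at least 95% identity over 50 bases). With 3 wells a group and 1 count at 0.0271 to 0.0402 CPM, low tRNAs are imprecise.

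The naming rule took all mRNAs and rRNAs, the tested tRNAs of largest and smallest change per strand, up to 5 copies, and the called genes of largest rise and fall in each list; further tRNAs and copies were named after their values were seen. Members and lists were chosen with earlier results of these data known. Alternatives were other scalings, filters, tools, units and thresholds, a replicate term and left-out libraries.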

Additional observations from a re-analysis of the deposited data

How the results depend on the processing

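Without a filter on low counts 18, 13 and 15 of 35 members were called in Valine against Control, Val+PA against Valine and Val+PA against Control, against 24.7%, 2.3% and 23.3% of all genes, and the cause was not tested. At an adjusted p below 0.01 there were 4, 0 and 3 of 25, against 27.7%, 0% and 26.3%. With at least 1 CPM in 3 libraries Val+PA against Control gave 3 of 21, against 46%. Without Control 3 and Val+PA 2, a pair known beforehand to stand apart, the counts were 13, 5 and 9 of 25, against 54.1%, 3.21% and 49.8%. Leaving out 1 library at a time gave 5 to 14 calls in Valine against Control, 0 in Val+PA against Valine and 5 to 8 in Val+PA against Control. Of all genes, 30.8% to 48.7%, 0% and 31.9% to 41.4% were called in these fits. The other scalings, DESeq2, limma-voom, the deposited signal and the 2 groups alone gave 6 to 12, 0 and 4 to 6. They called 34.4% to 49.9%, 0% to 1.38% and 32.1% to 39.3% of all genes.

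The log2 difference of the mRNA sum in Val+PA against Control was -0.14 with all libraries, 0.14 without Control 3 and Val+PA 2, and -0.24 to 0.056 with 1 library left out. The rRNA sum in Val+PA against Valine was -0.16, 0.020 and -0.39 to 0.023 in the same settings. Summed with the chromosome 1 copies, a choice made after seeing the data, the mRNA sum in Valine against Control was -0.029 instead of 0.065.

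Leaving out Control 3, Val+PA 2 and Val+PA 3 together was also chosen after seeing the data, by the mitochondrial profile of these libraries, and leaves 1 Val+PA library, so its class sums have no test there. It gave 21, 0 and 14 calls. In Val+PA against Control the sign turned for mt-Rnr2 (0.020), the mRNA sum (0.15), the rRNA sum (0.0065, against -0.69 with all libraries) and mt-Nd6 relative to the other 12 mRNAs (-0.11, against 0.74). In Val+PA against Valine it turned for the rRNA sum (0.30) and for mt-Nd6 relative to the other 12 mRNAs (-0.0058, against 1.48). These directions thus rest on the libraries left out.

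The 15 calls of single members were tried in 356 settings in all: 284 were called in the same direction, 71 had that direction but missed the threshold, and 1, that of mt-Rnr2 above, reversed. The 60 results that missed the threshold are given as counts only: of 1429 settings, 70 changed the sign and 89 brought a call, 8 of them with the opposite sign.

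With the replicate block, 8, 0 and 5 members were called, against 40%, 0% and 37.7% of all genes. The calls lost were mt-Ty (adjusted p = 0.057) in Valine against Control and mt-Th (adjusted p = 0.056) in Val+PA against Control. Deviations of libraries with the same number correlated at -0.41 to 0.24 across groups, and 3 of 9 libraries correlated best with their own number, so the numbers were not taken as pairs. Depth limits what can be seen of the tRNAs with few counts.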
